A study of Mus musculus with 6 samples.

Results

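SR proteins, heterogeneous nuclear ribonucleoproteins (hnRNPs) and CDC-like kinases (CLKs) were followed in mouse bone marrow derived macrophages treated with piceatannol or left as controls. They are the genes of the deposited count table whose symbols begin with Srsf and a number, begin with Hnrnp, or are Clk1, Clk2, Clk3 or Clk4, with pseudogene rows left out. The rule gave 35 genes of the 52459 in the table, of which 11 were Srsf genes, 20 were Hnrnp genes and 4 were Clk genes. It used names and no measured value, but the genes were chosen with earlier results of these data known.

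RNA was sequenced in 3 piceatannol and 3 control libraries. All cells came from the C57BL/6 strain and were grown from bone marrow with GM-CSF, a cytokine that drives myeloid growth. Piceatannol, a hydroxylated stilbene related to resveratrol and widely used to block the kinase Syk, was given overnight from day 7 of culture, and control cells received vehicle. Neither the dose nor the vehicle is stated in the sources used here, and the labels do not say whether libraries of a group came from separate mice or cultures. Every p-value therefore reflects variation among these 6 libraries only, and that variation may be technical.

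SR proteins carry RNA recognition motifs and a tail rich in arginine and serine, bind exonic enhancers and help to recruit the splicing machinery. hnRNPs coat nascent transcripts, and many of them act against the use of the exons or splice sites they bind. CLKs are nuclear kinases that phosphorylate the arginine-serine tails of SR proteins and so release them from nuclear speckles. Genes of all 3 families are known to regulate their own messages through poison exons or retained introns, and Clk1 and Clk4 transcripts are known to be held in the nucleus with introns that have not been removed.

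Promoters are given here for a few genes. They belong to genes that moved in opposite directions, picked after their values were seen, and are shown so that the start of a kinase gene or hnRNP gene that rose can be read beside an SR gene or hnRNP gene that fell. Each line gives RefSeq sequence (GRCm38.p6) upstream of an annotated transcript start, 5′ to 3′ on the gene's own strand. Capitals mark the motif letters found on either strand. For Clk4 only the stretch next to the start that lies in no annotated exon of another gene is shown.
Clk4: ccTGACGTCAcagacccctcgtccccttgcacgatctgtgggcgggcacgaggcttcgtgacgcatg
Clk2: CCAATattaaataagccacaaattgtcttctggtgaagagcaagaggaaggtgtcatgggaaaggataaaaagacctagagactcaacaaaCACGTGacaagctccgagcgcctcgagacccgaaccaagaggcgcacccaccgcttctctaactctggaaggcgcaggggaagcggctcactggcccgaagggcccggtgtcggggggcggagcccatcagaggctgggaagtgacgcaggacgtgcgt
Hnrnph1: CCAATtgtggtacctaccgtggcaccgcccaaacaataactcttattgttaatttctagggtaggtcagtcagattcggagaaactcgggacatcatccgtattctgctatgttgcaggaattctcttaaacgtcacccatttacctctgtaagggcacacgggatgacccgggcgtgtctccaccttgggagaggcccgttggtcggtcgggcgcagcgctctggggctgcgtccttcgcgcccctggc
Srsf9: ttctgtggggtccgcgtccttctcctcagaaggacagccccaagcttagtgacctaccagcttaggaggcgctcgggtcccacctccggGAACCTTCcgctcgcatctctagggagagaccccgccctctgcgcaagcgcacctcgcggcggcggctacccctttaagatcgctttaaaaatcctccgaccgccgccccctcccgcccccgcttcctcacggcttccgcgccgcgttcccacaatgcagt
Hnrnpa2b1: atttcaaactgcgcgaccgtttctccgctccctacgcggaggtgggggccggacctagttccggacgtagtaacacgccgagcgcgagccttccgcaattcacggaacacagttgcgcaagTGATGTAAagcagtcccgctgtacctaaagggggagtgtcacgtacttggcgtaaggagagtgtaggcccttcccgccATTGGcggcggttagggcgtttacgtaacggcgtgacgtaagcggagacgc
The Clk4 stretch covers chr11:51263047-51263113 (plus strand, 67 bases), and its capitals are the cAMP response element letters TGACGTCA. It lies before a RefSeq start but inside the Clk4 gene of GENCODE M21, which begins further upstream, at chr11:51261730. The Clk2 window is chr3:89164545-89164794 (plus strand), with a CCAAT box and the E-box letters CACGTG in capitals. The Hnrnph1 window, chr11:50376740-50376989 (plus strand), lies before the first of several annotated starts and holds a CCAAT box. The Srsf9 window is chr5:115326927-115327176 (plus strand), with the heat shock element letters GAANNTTC. The Hnrnpa2b1 window is chr6:51469895-51470144 (minus strand), upstream of the outermost of its annotated starts. It holds the C/EBP-ATF letters TGATGNAA and CCAAT on the opposite strand, written ATTGG.

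Windows of 250 bases before the start were available for 32 of the 35 genes (not for Clk1, Hnrnpll and Hnrnpul2), 44 windows in all, since some genes have several starts and their windows share bases. Letters were searched on both strands in these and in all 32851 promoters of the table. CCAAT was found in 21 of the 44 windows (47.7%), against 33.8% of all promoters. The antioxidant response element letters TGACNNNGC were found in 10 (22.7%), against 10.2%, in windows of Clk3, Hnrnpa3, Hnrnpf, Hnrnpk, Srsf2, Srsf4 and Srsf12. The heat shock element letters, GAANNTTC or TTCNNGAA, were in 4 windows (9.1%) and 12.8% of all promoters. CACGTG was in 4 (9.1%) and 6.0%, TGATGNAA in 2 (4.5%) and 3.5%, and TGACGTCA in 1 (2.3%) and 1.5%. The E-box letters are their own reverse complement, as are those of the cAMP response element, and none of these searches adjusts for base composition. The median GC content was 68.0% in the 44 windows and 52.4% over all promoters. Of the genes whose windows held TGACNNNGC, Clk3 and Srsf4 rose and Hnrnpf, Hnrnpk and Srsf2 fell.

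Total counts were between 33276569 and 58697084 per library, and 15380 genes had enough counts to be tested. The test was the quasi-likelihood one of edgeR, its p-values were adjusted over all tested genes by Benjamini-Hochberg, and 0.05 was the threshold. Most of the transcriptome differed after overnight treatment, and 77% of tested genes passed, 38.8% higher and 38.3% lower in piceatannol, and the median log2 fold change was 0.0113. A pass in itself was therefore common, and size and direction carry more of the description. The share of counts from mitochondrial genes was 2.15 ± 0.431% in piceatannol and 0.82 ± 0.0447% in control libraries (SD, n = 3 each). All 16 proliferation genes examined fell, with summed levels of 245 to 313 CPM (counts scaled to library size) in piceatannol and 1238 to 1363 CPM in control. All 7 macrophage markers were detected and summed to 12085 to 13608 CPM in piceatannol and 18335 to 22269 CPM in control, with Cd68 higher and the other 6 lower. Most of that sum was Lyz2, at means of 10224 CPM in piceatannol and 14876 CPM in control, 1.455-fold lower. Fcgr1 fell 10.2-fold, Itgam 4.37-fold, Adgre1 3.96-fold, Csf1r 2.55-fold and Mertk 1.27-fold, while Cd68 rose 2.16-fold. Among markers of other cells, 4 stromal ones summed to 454 to 496 CPM in piceatannol and 1875 to 2107 CPM in control, and 5 of dendritic cells to 813 to 1012 CPM in piceatannol and 1537 to 1664 CPM in control. The 5 neutrophil markers summed to 21.7 to 31.8 CPM in piceatannol and 104 to 216 CPM in control, and 4 of mast cells or basophils to 67.6 to 85.1 CPM in piceatannol and 21.6 to 26.7 CPM in control. That higher sum came from Kit alone (74.4 ± 9.40 CPM in piceatannol and 21.5 ± 2.72 CPM in control, SD, n = 3 each), while Cpa3 and Mcpt8 were lower, at means of 0.0529 and 0.257 CPM in piceatannol and 1.74 and 1.08 CPM in control, and Fcer1a was too low to be tested. Markers of T, NK and B cells summed to at most 2.01 CPM in any library, with Ncr1 at 0, and erythroid and megakaryocyte markers to 251 to 297 CPM in piceatannol and 250.4 to 273 CPM in control. The part of these shifts in the results that follow was not tested, and in bulk RNA fewer cells of a type and less RNA per cell cannot be told apart.

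The CLK genes rose, most hnRNP genes fell, and SR genes moved both ways, with more lower than higher. Of the 34 genes tested, 12 rose (35.3%, against 38.8% of all tested genes), 19 fell (55.9%, against 38.3%) and 3 did not pass, with a median log2 fold change of -0.19. All 4 CLK genes rose, with a median of 1.36. Of 10 SR genes tested, 3 were higher (30%) and 6 lower (60%), with a median of -0.16. The calls on Srsf3 and Srsf5, among the 6, lay near the threshold. Of 20 hnRNP genes, 5 were higher (25%) and 13 lower (65%), with a median of -0.32. Changes of at least 2-fold were made by 4 genes upwards, Clk1, Clk3, Clk4 and Srsf11, and by 4 downwards, Srsf9, Hnrnpa2b1, Hnrnpf and Hnrnpr. Over all tested genes such changes made up 17.5% upwards and 16.6% downwards. The groups' libraries did not overlap for 31 of the 34 genes, against 79% of all tested genes. Within a group the libraries lay close together, with a median coefficient of variation over these genes of 5.09% in piceatannol and 4.18% in control.

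**Figure D1:**
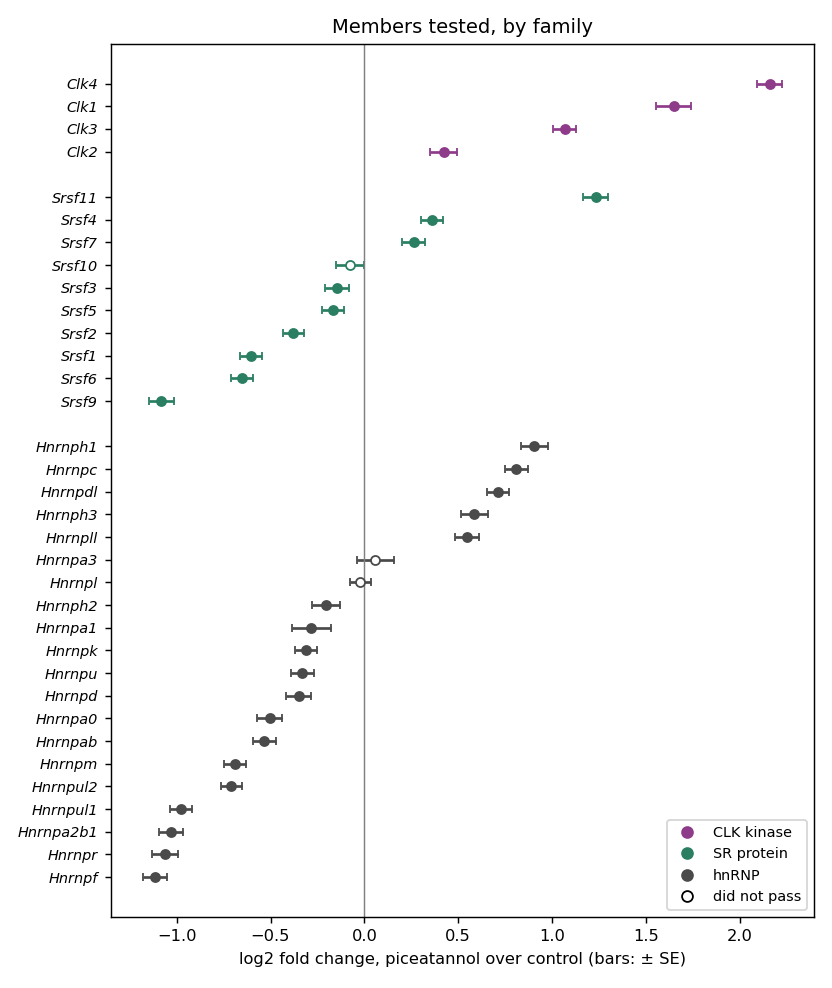
Log2 fold change of each tested SR, hnRNP and CLK gene, piceatannol over control (x axis), with bars of ± 1 standard error from edgeR's fit to 3 libraries a group; open circles did not pass the threshold. All 4 CLK genes lie right of 0, between 0.42 and 2.16, while SR and hnRNP genes lie on both sides.

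All 4 CLK genes were more abundant after piceatannol, by 1.34-fold to 4.47-fold. Clk4 had 173, 150.3 and 153.5 CPM in the piceatannol libraries and 37.2, 33.9 and 35.6 CPM in the control libraries. The lowest treated library was far above the highest control. The log2 fold change was 2.16 ± 0.07 (SE), a 4.47-fold rise (edgeR adjusted p = 2.43e-16), and 5.36% of all tested genes rose by as much. Clk1, the closest relative of Clk4, had 214, 176 and 185 CPM in piceatannol and 64.3, 52.5 and 66.5 CPM in control. Its groups were again well apart, at 1.65 ± 0.09 on the log2 scale or 3.14-fold (edgeR adjusted p = 2.09e-09). Clk3, another kinase of the family, had 240.1, 218 and 239 CPM in piceatannol and 104, 113 and 115 CPM in control. This was a 2.10-fold rise (log2 1.07 ± 0.06, edgeR adjusted p = 3.32e-12). Clk2, the remaining family member, moved least, with 75.7, 69.9 and 85.2 CPM in piceatannol and 56.5, 56.2 and 59.6 CPM in control. The groups did not overlap, and the rise was 1.34-fold (log2 0.42 ± 0.07, edgeR adjusted p = 1.99e-05). A log2 fold change as high as that of Clk2 was reached by 33.9% of all tested genes, so a rise of that size was common.

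**Figure D2:**
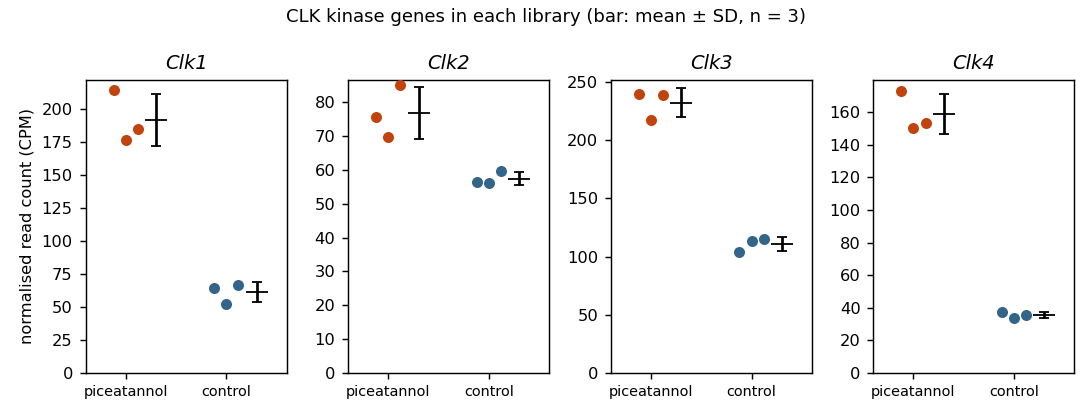
Normalised read count (CPM, y axis from 0) of Clk1, Clk2, Clk3 and Clk4 in each of 3 piceatannol and 3 control libraries, with mean and SD beside the points. The piceatannol libraries lie above all control libraries for each gene, widely for Clk4 (150.3 to 173 CPM in piceatannol, 33.9 to 37.2 CPM in control) and narrowly for Clk2 (69.9 to 85.2 CPM in piceatannol, 56.2 to 59.6 CPM in control).

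Per length, the order of the kinases changed with treatment. In FPKM, the authors' length-scaled unit, Clk4 had 29.3, 25.6 and 26.02 in piceatannol and 6.41, 5.86 and 6.13 in control. In piceatannol libraries the mean FPKM levels of Clk3 (27.1) and Clk4 (27.0) did not differ beyond their spread, Clk1 (23.2) overlapped them in its highest library, at 25.9 FPKM, and Clk2 (14.3) was lowest. In control libraries the means ran from high to low as Clk3 (13.1), Clk2 (10.8), Clk1 (7.51) and Clk4 (6.13), and no neighbours in that order overlapped. Clk4 thus made up 29.5 ± 1.03% of the summed CLK level in piceatannol libraries and 16.3 ± 0.789% in control libraries, while Clk2 made up 15.6 ± 1.41% in piceatannol and 28.8 ± 0.342% in control (SD, n = 3 each). The 4 kinases summed to 97.1, 85.6 and 92.0 FPKM in piceatannol and 37.3, 36.4 and 39.1 FPKM in control, 2.44 times as much. The summed level of SR genes moved the other way, at 307.6, 297 and 302 FPKM in piceatannol and 353, 359 and 346 FPKM in control. In CPM, which is not scaled to length, the fall was smaller. The SR sum was then 1221 ± 33.2 CPM in piceatannol and 1285 ± 5.66 CPM in control (SD, n = 3 each). The ratio of summed CLK to summed SR transcript was 0.303 ± 0.0140 in piceatannol and 0.107 ± 0.00585 in control (SD, n = 3 each). These sums are descriptions of a chosen list and were not tested.

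Among SR genes, Srsf11 rose most and Srsf9 fell most, and most others moved by less. Srsf11 encodes p54, an arginine-serine protein that associates with the U2AF splicing factor. Its level was 280.1, 262 and 252 CPM in piceatannol and 120.5, 102 and 115 CPM in control. The groups were far apart, with a 2.35-fold rise (log2 1.23 ± 0.07, edgeR adjusted p = 1.06e-12). Srsf4, which encodes the large SR protein SRp75, had 84.3, 85.9 and 88.7 CPM in piceatannol and 67.3, 64.8 and 69.5 CPM in control, 1.28-fold higher (edgeR adjusted p = 1.84e-05). Srsf7, which encodes 9G8, an SR protein with a zinc knuckle, had 120.5, 117 and 122 CPM in piceatannol and 97.2, 107 and 95.3 CPM in control, 1.201-fold higher (edgeR adjusted p = 5.85e-04). Neither gene had a treated library at or below a control one, but their changes were small beside that of Srsf11.

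Of the 6 SR genes that fell, Srsf9 fell most, and Srsf6, Srsf1 and Srsf2 fell by less. Srsf9, which encodes SRp30c, had 39.1, 39.3 and 42.8 CPM in piceatannol and 89.2, 88.0 and 79.6 CPM in control. It was 2.12-fold lower, with groups far apart (log2 fold change -1.08 ± 0.07, edgeR adjusted p = 9.93e-12). Srsf6, which encodes SRp55, had 124, 116 and 120.1 CPM in piceatannol and 189.6, 182 and 194 CPM in control, 1.57-fold lower (edgeR adjusted p = 2.33e-09). Srsf1, among the first SR proteins to be described, had 105, 97.2 and 95.0 CPM in piceatannol and 155, 152 and 144 CPM in control, 1.52-fold lower (edgeR adjusted p = 1.53e-08). Srsf2, or SC35, had 188, 182 and 188 CPM in piceatannol and 243, 253 and 230.3 CPM in control, 1.30-fold lower (edgeR adjusted p = 6.07e-06). Every treated library was below every control library for these 4 genes.

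Srsf3 and Srsf5 changed little and near the threshold. Srsf5, which encodes SRp40, had 209, 198 and 199 CPM in piceatannol and 218, 224 and 237 CPM in control (1.12-fold lower, edgeR adjusted p = 0.0143). Srsf3, the smallest SR protein, had 77.1, 69.5 and 72.0 CPM in piceatannol and 77.2, 82.6 and 82.1 CPM in control (1.11-fold lower, edgeR adjusted p = 0.0419), so its groups nearly touched. The call on Srsf5 was lost without control replicate 3 (edgeR adjusted p = 0.0874), and that on Srsf3 without any of piceatannol replicates 2 and 3 and control replicates 2 and 3 (adjusted p of 0.0881 to 0.147). Srsf10, known as a repressor when dephosphorylated, had 32.0, 29.2 and 27.5 CPM in piceatannol and 31.7, 31.0 and 30.9 CPM in control. Its groups overlapped and it did not pass (log2 fold change -0.08 ± 0.08, edgeR adjusted p = 0.356). Srsf12 had 0, 2 and 1 counts in the piceatannol libraries and 2, 3 and 6 counts in the control libraries, too few to be tested.

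In FPKM, Srsf2 was the highest SR gene in control libraries and stayed so after treatment, with 61.99 FPKM in piceatannol and 81.9 FPKM in control. Srsf3, Srsf5 and Srsf10 share much of their coding sequence with other loci, which leaves their place in this order uncertain. Srsf5 had 49.8 FPKM in piceatannol and 56.8 FPKM in control. Srsf9 had 24.1 FPKM in piceatannol and 51.8 FPKM in control, and Srsf11 had 30.9 FPKM in piceatannol and 13.3 FPKM in control. The ratio of Srsf11 to Srsf9 in FPKM was 1.40, 1.31 and 1.15 in piceatannol and 0.264, 0.228 and 0.282 in control. Srsf11 was thus the more abundant of the pair in each treated library and the less abundant in each control library, a pair picked after the values were seen.

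**Figure D3:**
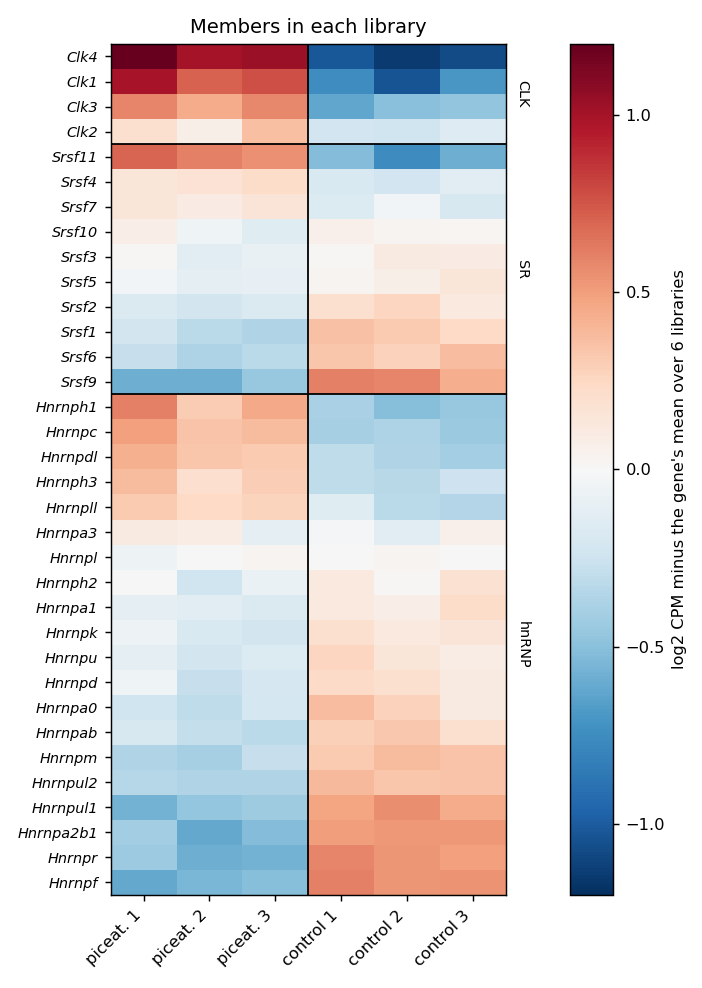
Log2 CPM of each tested gene (rows, by family) minus its mean over the 6 libraries (columns, 3 piceatannol left of 3 control); red is above and blue below the mean. The 3 columns of a group look alike, and the CLK rows and Srsf11 show the reddest treated libraries.

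Most hnRNP genes fell, led by Hnrnpf, Hnrnpr and Hnrnpa2b1. Hnrnpa2b1 encodes A2/B1, an abundant binder of nascent RNA known in macrophages as a sensor of viral DNA in the nucleus. It had 348, 303 and 323 CPM in piceatannol and 657, 666 and 666 CPM in control. The groups were far apart, with a 2.04-fold fall (log2 fold change -1.03 ± 0.06, edgeR adjusted p = 8.23e-12). Hnrnpf, which binds runs of G and shares most of its coding sequence with other loci, had 30.4, 31.8 and 32.6 CPM in piceatannol and 70.8, 67.3 and 67.5 CPM in control, 2.17-fold lower (log2 fold change -1.12 ± 0.07, edgeR adjusted p = 3.04e-12). Hnrnpr, a relative of Syncrip, had 25.5, 23.0 and 23.3 CPM in piceatannol and 51.8, 49.8 and 48.5 CPM in control, 2.09-fold lower (log2 fold change -1.06 ± 0.07, edgeR adjusted p = 2.82e-11). In all 3 genes each treated library was below each control library.

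Of the most abundant hnRNP transcripts by FPKM, all but Hnrnpc fell. Hnrnpab, which encodes a protein close to hnRNP D, had 292, 274 and 267 CPM in piceatannol and 407, 417 and 381 CPM in control, 1.45-fold lower (edgeR adjusted p = 1.17e-07). Hnrnpul2, a relative of the scaffold attachment factor hnRNP U, had 258, 255 and 254 CPM in piceatannol and 429, 411 and 414 CPM in control, 1.64-fold lower (edgeR adjusted p = 5.07e-10). Hnrnpa0, which binds AU-rich elements of inflammatory messages in macrophages, had 148, 141 and 151 CPM in piceatannol and 225, 211 and 188 CPM in control, 1.42-fold lower (edgeR adjusted p = 7.08e-07). Hnrnpc, whose protein binds runs of U and keeps Alu sequences out of messages in human cells, went against them. It had 290.4, 262 and 267 CPM in piceatannol and 157, 159 and 151 CPM in control, a 1.76-fold rise with no overlap (log2 0.81 ± 0.06, edgeR adjusted p = 1.31e-10). In FPKM, Hnrnpc stood at 93.8 in piceatannol and 54.3 in control, and Hnrnpa2b1 at 48.6 in piceatannol and 100.7 in control. By that unit Hnrnpc was the higher of these core particle genes in piceatannol and the lower in control. In CPM, which is not scaled to length, Hnrnpa2b1 was the higher in every library. Counts and FPKM imply a length of 2886 bases for Hnrnpc, where GENCODE M21 lists 4322. Hnrnpc also shares coding sequence with other loci, which leaves its level uncertain.

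Hnrnpl and Hnrnpa3 did not pass. Hnrnpl, which binds CA repeats, had 228, 236 and 242 CPM in piceatannol and 238, 242 and 236 CPM in control (log2 fold change -0.02 ± 0.06, edgeR adjusted p = 0.732). Hnrnpa3, a relative of A2/B1, had 14.8, 14.5 and 12.7 CPM in piceatannol and 13.5, 12.4 and 14.2 CPM in control (log2 fold change 0.06 ± 0.10, edgeR adjusted p = 0.589). Their groups overlapped. Of the other 11 hnRNP genes, 4 rose, with log2 fold changes of 0.55 to 0.91, and 7 fell, with values of -0.98 to -0.21. The 4 were Hnrnph1, Hnrnpdl, Hnrnph3 and Hnrnpll and the 7 were Hnrnpul1, Hnrnpm, Hnrnpd, Hnrnpu, Hnrnpk, Hnrnpa1 and Hnrnph2. Hnrnpa1 lost its call without control replicate 3 (edgeR adjusted p = 0.0811), and Hnrnph2 lost its call without that library or without piceatannol replicate 2 (0.0725 and 0.0939).

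Some related hnRNP genes moved apart, which was noticed after their values were seen and was not tested as a pattern. Hnrnph1 and Hnrnpf encode close relatives that bind runs of G. Hnrnph1 had 371, 302 and 335 CPM in piceatannol and 187, 172 and 179 CPM in control, a 1.88-fold rise (edgeR adjusted p = 3.97e-10), where Hnrnpf fell. Their ratio in FPKM was 5.56 ± 0.73 in piceatannol and 1.36 ± 0.0275 in control (SD, n = 3 each). The ratio of Hnrnph1 to Hnrnph2 moved less, at 5.47 ± 0.132 in piceatannol and 2.53 ± 0.115 in control (SD, n = 3 each). Hnrnpf and Hnrnph2 share much of their coding sequence with other loci, so their levels and these ratios are uncertain. Hnrnpdl is a paralog of Hnrnpd, or AUF1, which binds AU-rich elements. Hnrnpdl had 216, 202 and 199 CPM in piceatannol and 130.3, 125 and 121 CPM in control, 1.64-fold higher (edgeR adjusted p = 8.31e-10), and Hnrnpd had 114, 98.1 and 104 CPM in piceatannol and 139, 136 and 128 CPM in control, lower by 0.35 ± 0.07 on the log2 scale (edgeR adjusted p = 5.98e-05). The ratio of Hnrnpdl to Hnrnpd in FPKM was 2.99 ± 0.136 in piceatannol and 1.43 ± 0.0169 in control (SD, n = 3 each). Hnrnpll, known for driving Cd45 exon skipping in T cells, had 225, 214 and 218 CPM in piceatannol and 163, 145 and 142 CPM in control, 1.46-fold higher (edgeR adjusted p = 1.11e-07), where its paralog Hnrnpl did not pass.

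The annotation limits how far single members can be read, since some share sequence with pseudogenes or close copies, and reads from it may fit several loci. In GENCODE M21 the share of a gene's coding sequence whose 50-base stretches also occur in transcripts of another gene was 96.1% for Hnrnpf, 94.5% for Hnrnpa3, 89.4% for Srsf3, 78.9% for Srsf10, 78.5% for Hnrnpa1, 65.5% for Hnrnpk, 55.1% for Hnrnph2, 52.0% for Srsf5, 38.0% for Hnrnpc and 32.5% for Hnrnpr. It was at most 0.9% for the CLK genes and at most 12.7% for the other 21 genes. How the counting treated reads that fit several places is not given in the sources used here, so the levels of these 10 genes are uncertain. Of the 10, 1 rose, 7 fell and 2 did not pass, with a median log2 fold change of -0.19. Of the 24 other genes tested, 11 rose, 12 fell and 1 did not pass, with a median of -0.18. Over all tested genes 38.8% rose and 38.3% fell. The 24 include all 4 CLK genes, which rose, so the classes also differ in family. Of the 8 genes past 2-fold, Hnrnpf and Hnrnpr are among the 10.

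**Figure D4:**
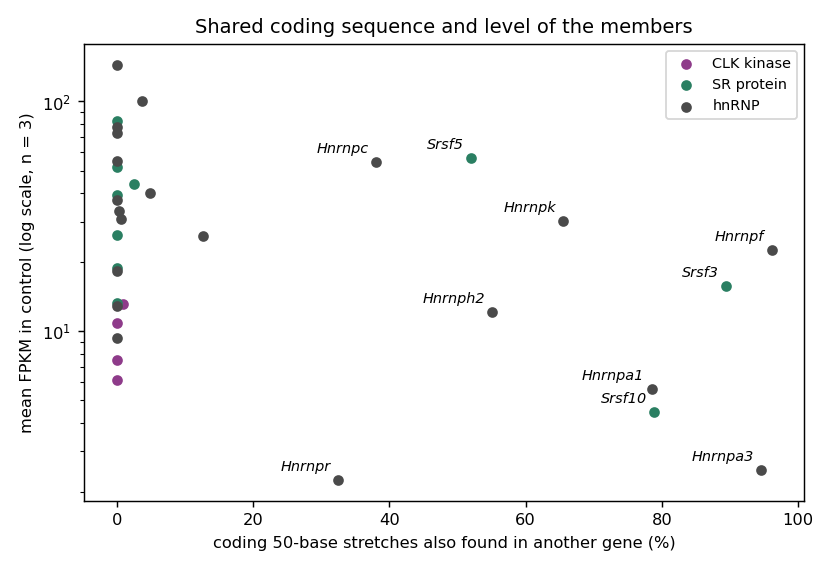
Share of coding 50-base stretches that also occur in another gene's transcripts (x axis, %) against mean FPKM in the 3 control libraries (y axis, log scale) for the 34 tested SR, hnRNP and CLK genes; labels name the 10 genes at 25% or more. All CLK genes lie at the left edge, while Hnrnpf, Hnrnpa3 and Srsf3 lie at 89.4% or more.

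Exons of some members overlap those of neighbours on the other strand, and no strand setting is given in the sources used here. Srsf2 shares 460 exon bases, 15.6% of its exons, with Mettl23, which did not pass (edgeR adjusted p = 0.503). Srsf2 also shares 288 exon bases with Mfsd11, which rose 2.14-fold (108 ± 8.72 CPM in piceatannol and 50.5 ± 3.29 CPM in control, SD, n = 3 each) while Srsf2 fell. Clk3 shares 1284 exon bases, 15.2% of its exons, with Edc3, which did not pass (edgeR adjusted p = 0.16). Hnrnpab shares 809 with Phykpl and Srsf4 shares 1532, 43.0% of its exons, with Gm12992. Hnrnpm shares 1169 bases with March2 on the same strand, and March2 fell with a log2 fold change of -0.77 ± 0.06. Clk1 lies at chr1:58410189-58424066 (minus), Clk2 at chr3:89164795-89176921 (plus), Clk3 at chr9:57750624-57765860 (minus) and Clk4 at chr11:51261730-51281766 (plus). Srsf11 lies at chr3:158010473-158036639 (minus), Srsf9 at chr5:115327177-115333080 (plus), Hnrnpa2b1 at chr6:51460932-51469894 (minus), Hnrnpf at chr6:117900324-117925622 (plus) and Hnrnpr at chr4:136310942-136359447 (plus), all in GRCm38.

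A count per gene adds up all transcripts of that gene, including those that make no protein. GENCODE M21 lists a transcript marked for nonsense-mediated decay for 4 of 4 CLK genes, 9 of 11 SR genes and 10 of 20 hnRNP genes, against 28.0% of 13169 tested protein-coding genes. It lists a retained-intron transcript for 4 CLK, 8 SR and 14 hnRNP genes, against 57.9%. SR genes with a listed decay transcript had a median log2 fold change of -0.17 (9 tested, 3 above 0), and hnRNP genes with and without one had medians of -0.30 and -0.52. Which transcripts made up the rise of the CLK genes was not measured.

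Other splicing genes were taken from 7 lists, whose counts are to be read beside the 38.8% of all tested genes that rose and the 38.3% that fell. Among 10 kinases and import factors of SR proteins, 6 rose (60%), 3 fell (30%) and 1 did not pass, with a median log2 fold change of 0.31. Srpk1 and Srpk2, the cytoplasmic kinases that act before CLKs, rose 1.33-fold (101 ± 1.73 CPM in piceatannol and 75.8 ± 2.63 CPM in control, edgeR adjusted p = 2.9e-06) and 1.16-fold (44.7 ± 1.67 CPM in piceatannol and 38.4 ± 1.62 CPM in control, edgeR adjusted p = 0.00595; SD, n = 3 each). These and Srpk3 were named after their values were seen. Dyrk1b, of a kinase family that also acts on splicing factors, rose 2.58-fold (log2 1.36 ± 0.08, edgeR adjusted p = 2e-12). Tnpo1, an import receptor for hnRNPs, rose 1.501-fold (edgeR adjusted p = 3.75e-08), and Tnpo3, the import receptor of SR proteins, fell 1.11-fold (edgeR adjusted p = 0.0324). Srpk3, a muscle kinase of the same family, was barely detected, at 0, 0 and 1 counts in piceatannol and 27, 15 and 28 counts in control. Dyrk3 fell 1.48-fold (edgeR adjusted p = 6.23e-04). Without piceatannol replicate 1, piceatannol replicate 3 or control replicate 1 the call on Tnpo3 was lost (edgeR adjusted p of 0.0717, 0.0865 and 0.156).

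SR-related proteins, which carry arginine-serine stretches without being classical SR proteins, had 15 of 21 tested genes up (71.4%, against 38.8% of all tested genes), 3 down (14.3%, against 38.3%) and 3 that did not pass, with a median of 0.39. Rbm39 had 425, 386 and 390.2 CPM in piceatannol and 215, 193 and 221 CPM in control, 1.91-fold higher (edgeR adjusted p = 5.9e-11), and Scaf4 rose 1.72-fold. Pnn and Luc7l3 fell by 0.26 and 0.23 on the log2 scale. hnRNP proteins with other symbols were mixed, with 6 of 14 up (42.9%), 4 down (28.6%), 4 not passing and a median of 0.01. Ptbp2, a splicing repressor best known from neurons, had 31.6, 26.7 and 24.9 CPM in piceatannol and 9.73, 8.68 and 9.36 CPM in control, 2.99-fold higher (edgeR adjusted p = 9.26e-12). Rbmx rose 1.87-fold, while Rbm3 fell 1.76-fold and Syncrip 1.52-fold.

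Of 19 small nuclear ribonucleoprotein, Sm and Lsm genes, which form the core of the splicing machinery, 16 fell (84.2%, against 38.3% of all tested genes), 1 rose (5.26%, against 38.8%) and 2 did not pass, with a median of -0.84. Lsm2 fell 3.19-fold, with 6.41, 5.90 and 6.14 CPM in piceatannol and 18.9, 21.4 and 18.7 CPM in control, and Lsm4 2.58-fold. The 1 that rose was Lsm7, named after its values were seen, with 2.57, 2.36 and 2.72 CPM in piceatannol and 1.82, 2.19 and 1.73 CPM in control (edgeR adjusted p = 0.0456). Its call was lost without piceatannol replicate 1 or 3 or control replicate 1 or 3 (edgeR adjusted p of 0.079, 0.129, 0.133 and 0.162). Of 32 core spliceosome factors 21 fell (65.6%), 7 rose (21.9%) and 4 did not pass, with a median of -0.36. Prpf31, part of the tri-snRNP, fell 2.47-fold, and Eftud2, a GTPase of the same particle, fell 1.99-fold, while Dhx8 and Prpf6 rose 1.73-fold and 1.43-fold. The differences between these lists were not tested.

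Other splicing regulators were spread widely, with 7 of 24 up (29.2%), 11 down (45.8%) and 6 not passing and a median of -0.19. Mbnl1, a muscleblind protein, had 100.3, 97.0 and 90.3 CPM in piceatannol and 748, 724 and 702 CPM in control, 7.56-fold lower (log2 fold change -2.92 ± 0.07, edgeR adjusted p = 1.32e-18). Celf2 fell 3.40-fold, while its relative Celf1 rose 1.47-fold and Taf15 rose 1.41-fold. Of 15 factors of nonsense-mediated decay and the exon junction, 7 rose (46.7%), 4 fell (26.7%) and 4 did not pass, with a median of 0.05. Smg6 rose 1.49-fold, and Eif4a3 and Magohb fell 1.46-fold and 1.57-fold. Over the 7 splicing lists together, 49 of 135 genes tested rose (36.3%, close to the 38.8% of all tested genes) and 62 fell (45.9%, against 38.3%), with a median of -0.12.

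**Figure D5:**
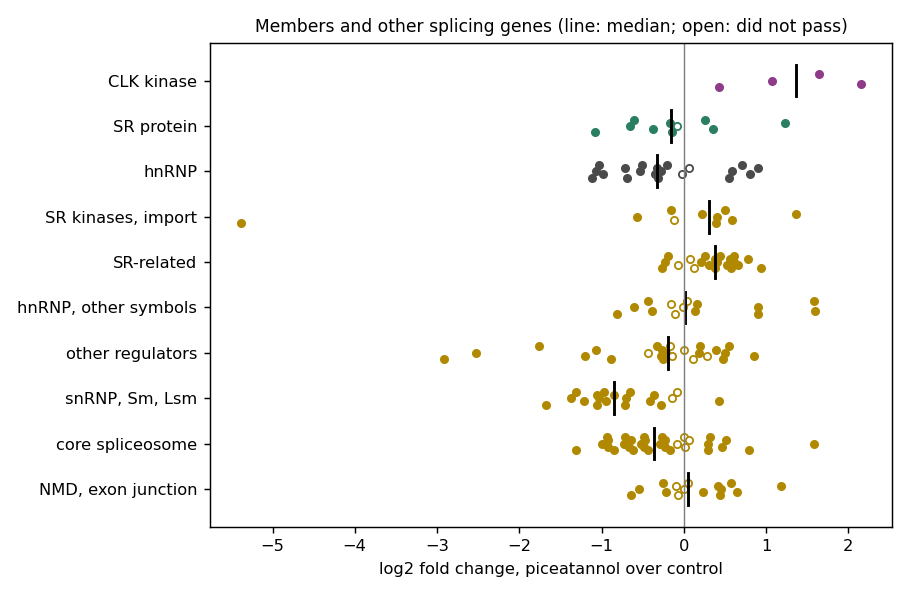
Log2 fold change, piceatannol over control (x axis), of each tested gene in the 3 families and 7 other splicing lists; vertical lines are medians, open circles did not pass and vertical scatter within a row has no meaning. The CLK genes lie right of 0 (median 1.36), while small nuclear ribonucleoprotein genes lie mostly left of it (median -0.84), and the far left point is Srpk3, at 0.0205 CPM or less in each piceatannol library and 0.342 to 0.511 CPM in control libraries.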

How the data were processed

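RNA sequencing was compared between 3 piceatannol and 3 control libraries, grouped by their labels. Per the labels' protocols, an Illumina TruSeq RNA kit was used on total RNA. Whole-number read counts by gene symbol were deposited by the authors, together with FPKM values, which scale fragments to gene length and library size. STAR, featureCounts, bcl2fastq and DESeq2, with mm10 and GRCm38, are named without versions in the submitters' processing notes. Of the annotation, the strand setting and multimapping reads, the sources used here say nothing.

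The counts were tested with edgeR 4.0.16 in R 4.3.3. Genes were filtered with filterByExpr (minimum count 10), libraries were scaled with TMM factors of 0.985 to 1.016, and a robust two-sided quasi-likelihood test was run. Its p-values were adjusted by Benjamini-Hochberg across the 15380 genes left, with 0.05 as threshold. Standard errors are the log2 fold change over the square root of F. CPM used TMM-scaled totals. Levels of different genes were compared as FPKM, apart from Hnrnpc and Hnrnpa2b1, which were also set side by side in CPM. The method was also run on simulated counts. Far fewer genes were changed there than passed in these data, so that run cannot show how the test behaves here. Alternatives were other scalings and filters, DESeq2 1.42.0, limma 3.58.1 on voom weights and on log2 FPKM with pseudocounts of 1 and 0.1, a threshold of 0.01, the replicate block, and each library left out.

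The genes and the lists were chosen with earlier results of these data known. All Clk and Srsf genes were named. Of the Hnrnp genes, the 5 with the highest mean FPKM, those past 2-fold and those that did not pass were named, and from each list up to 2 genes per direction with the smallest p and a mean log2 CPM of at least 2. Some items that the rules would name are not reported here. Counts within groups differed by more than sampling noise (chi-square over its degrees of freedom, 10.1 to 18.6), and no library looked deposited again. Replicate numbers come from the labels, and same-numbered libraries deviated together (correlations of 0.115, 0.121 and 0.134), which meets the rule for pairing. The values printed are from the fit without the pairing, and the fit with the replicate number as a block was an alternative. Shared sequence, exon overlaps and transcript types came from GENCODE M21, and promoters from RefSeq (GRCm38.p6). The GENCODE exon length was within 2% of the length implied by counts and FPKM for 28 of 34 genes. The other 6 were Hnrnpa1, Hnrnpc, Hnrnpm, Hnrnpul2, Srsf3 and Srsf7.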

Additional observations from a re-analysis of the deposited data

How the results depend on the processing

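Each of the 34 tested genes was refitted under 16 alternatives. Of the 544 values, 527 kept direction and side of the threshold, and 29 genes did so throughout. The sign turned only for Hnrnpl, which had not passed: 0.031 with upper-quartile factors (adjusted p = 0.626), 0.037 with a stricter filter requiring 5 CPM in 3 libraries (0.53) and 0.002 without piceatannol replicate 1 (0.98), by edgeR. With single libraries left out Hnrnpl ranged between -0.045 and 0.002. The other 14 lost a call, 6 for Srsf3 (adjusted p up to 0.201), 4 for Hnrnph2 (up to 0.0939), 3 for Srsf5 (up to 0.0875) and 1 for Hnrnpa1 (0.0811); those not tied to a single library came from upper-quartile factors and the stricter filter, and the cause was not tested. The 4 CLK genes, 3 SR genes and 5 hnRNP genes that rose did so under all alternatives. SR genes that fell numbered 4 to 6 and hnRNP genes 11 to 13. With the replicate block the counts were 3 SR, 5 hnRNP and 4 CLK genes up and 6 SR, 13 hnRNP and 0 CLK genes down, and no call on these genes changed. The rise of Lsm7, the only higher gene of its list, was not called under 9 settings (under the stricter filter it was removed before testing), among them leaving out piceatannol replicate 1 or 3 or control replicate 1 or 3. Decay and exon junction genes that fell numbered 2 without control replicate 2, and SR kinase and import genes that fell numbered 1 with the stricter filter. The median over all genes moved to 0.064 with upper-quartile factors and 0.085 without a filter. Srsf12 had too few counts to be tested at this depth.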
